A study of Drosophila melanogaster and Drosophila simulans with 11 samples.

Results

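On the autosomal arms of *roX* mutant salivary glands, 1737 regions were called for MSL2 that did not overlap a region called for MOF in the same tissue. They were chosen on the *roX* mutant MSL2 and MOF values. The deposited log2 ratios of ChIP over input were smoothed by a 500 bp running median with 25 values or more, and the highest 1.5% of all smoothed values of a library were taken. Positions over this cutoff and at most 200 bp apart were joined into regions, which had to be 200 bp or longer. The regions kept lie on 2L, 2R, 3L and 3R, outside the 2 Mb at the centromere end of each arm. They are 1737 of the 1874 MSL2 regions called there, and of 2463 in the whole genome. The others comprised 137 that overlapped a MOF region, 259 at the centromere ends, 231 on X, 7 on chromosome 4 and 92 on the remaining sequences.

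The chromatin came from salivary glands of *D. melanogaster* larvae of instar 3, with 125 glands per sample. The *roX* mutant males (X-chromosome marked y w over Y) carry the alleles roX1[ex6] and Df(1)roX2[52], which affect both *roX* genes, and the transgene P[w+ 4Δ4.3], and were profiled for MSL1, MSL2 and MOF. The wild type males, of the Oregon R strain, were profiled for MSL2 and MOF. There is 1 library of each kind, and the libraries of a genotype were set against the same input, so that the values below compare libraries and carry no test across genotypes. The genotypes also differ in strain background, and effects of background and of the *roX* lesions cannot be told apart.

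MSL2 is the male-specific subunit of the MSL complex, the ribonucleoprotein that acts in dosage compensation of the single male X-chromosome. It binds DNA and, with the scaffold protein MSL1, forms the core of the complex, which also holds MSL3, the histone H4 acetyltransferase MOF, the helicase MLE and the non-coding *roX1* and *roX2* RNAs. MOF also takes part in another complex, named NSL, which occupies promoters on all chromosomes. Larval salivary glands have polytene chromosomes, in which many aligned copies of the chromatids form bands along the arms.

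The regions were short, and most stood just over the cutoff that defined them. Their length ranged from 200 to 1370 bp with a median of 360 bp (quartiles 290 and 460 bp), and together they covered 696200 bp. Of the 1737 regions, 1389 (80.0%) were shorter than 500 bp and 27 reached 1000 bp. The value of a region, taken as the mean of its highest 5 consecutive smoothed log2 ratios, ranged from 0.60 to 1.14 with a median of 0.68 (quartiles 0.64 and 0.74). The cutoff was 0.60, and 686 regions (39.5%) had a value 0.1 or more above it, 206 (11.9%) 0.2 or more and 50 (2.88%) 0.3 or more. Longer regions tended to have higher values, with Pearson's r = 0.33 and Spearman's rho = 0.41 across the 1737 regions, as a description in which both measures come from the same smoothed values.

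**Figure D1:**
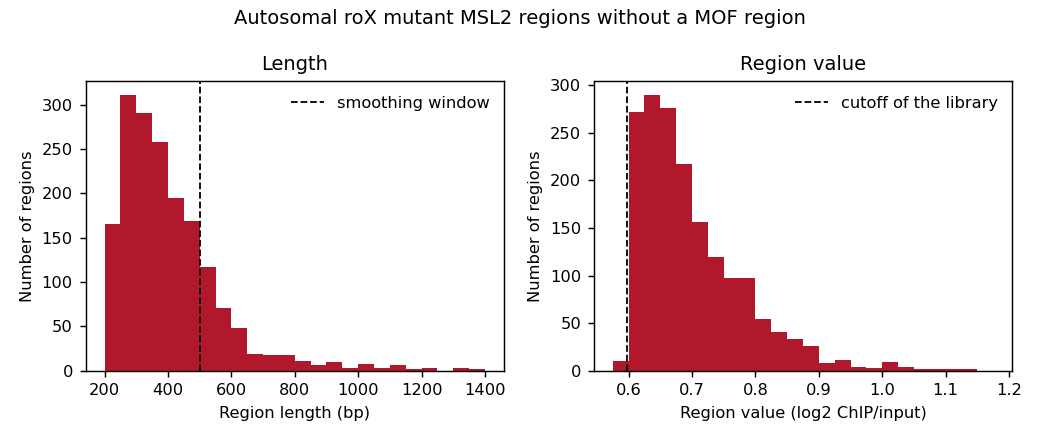
Histograms of the length in bp (left) and the region value in log2 ChIP over input (right) of the 1737 regions, with the number of regions on the y axes. The dashed lines mark the 500 bp of the smoothing window and the cutoff of 0.60; 1389 regions are shorter than 500 bp, and the values thin out toward the highest, 1.14.

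The cutoff was close to the tail of the autosomal values themselves. On the arms, the smoothed *roX* mutant MSL2 values had a median of 0.0037 and an SD of 0.29, and 1.36% of them reached the cutoff. The highest 1.5% of the arm values began at 0.59 and the lowest 1.5% at -0.65, so that the lower tail lay farther from the median than the upper one. With the cutoff at 0.597, the lowest region values were 0.598 at chr2L:10901240-10901480, 0.598 at chr3L:9171100-9171320 and 0.598 at chr2R:18128950-18129230 (release 5 coordinates, as throughout).

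Just outside the rule, 594 further regions appeared when the highest 2% of values were taken, with a cutoff of 0.57. The highest of them had values of 0.86 at chr2L:446130-446350, 0.84 at chr3R:27171380-27171580 and 0.75 at chr3R:10019750-10020070, which passed 0.60 only over runs shorter than 200 bp. In all, 415 runs over the cutoff were left out for being shorter than 200 bp, such as 190 bp at chr2L:2346100-2346290 with a value of 0.78. At the same edge, 57 of the 1737 regions were at most 10 bp longer than the minimum.

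All 4 arms carried such regions at similar density. 2L had 362, 2R had 366, 3L had 463 and 3R had 546. Per Mb of arm outside the centromere end the density was 17.3 for 2L, 19.1 for 2R, 20.5 for 3L and 21.1 for 3R. Smoothed values covered 58.0 of the 88.6 Mb, in shares that differed between arms. Per Mb with smoothed values it was 27.9 for 2L, 28.4 for 2R, 31.7 for 3L and 31.2 for 3R. Lengths and values hardly differed between arms, with median lengths of 360 bp on 2L, 2R and 3R and 370 bp on 3L, and median region values between 0.67 and 0.68. The longest region of an arm measured 1140 bp for 2L, 1370 bp for 2R, 1320 bp for 3L and 1350 bp for 3R.

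That 92.7% of the MSL2 regions on the arms had no MOF region is part of the selection. For comparison, 1.09% of 81082 autosomal 1 kb bins with 25 or more MOF values overlapped a *roX* mutant MOF region, against 137 of the 1874 MSL2 regions. The MSL2 regions that did overlap one were unevenly spread, as 2L had 47, 2R and 3R had 41 each and 3L had 8. Of the MSL2 regions on 3L, 98.3% thus had no MOF region, against 88.5% on 2L. The share of bins that overlap a MOF region was taken over all arms together and not by arm. The deposited *roX* mutant MOF values had their lowest median on 3L (-0.013). This median was 0.0056 for 3R, 0.060 for 2L and 0.070 for 2R. Whether the uneven spread is particular to the MSL2 regions was therefore not tested.

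Along each arm the regions were uneven. Among the 87 steps of 1 Mb with smoothed values over more than 50% of their length, the number per step ranged from 0 to 69 with a median of 17. The densest steps were both on 3L, with 69 regions at 17 to 18 Mb and 67 at 14 to 15 Mb from the centromere end. On the other arms the highest numbers were 54 on 3R at 6 to 7 Mb, 53 on 2R at 3 to 4 Mb and 47 on 2L at 17 to 18 Mb. The sparsest step had 1 region on 2L and 3 on each of 2R and 3L, and the step at 5 to 6 Mb of 3R had 0. The 10 densest steps held 511 regions (29.4%), and the 10 sparsest held 26.

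**Figure D2:**
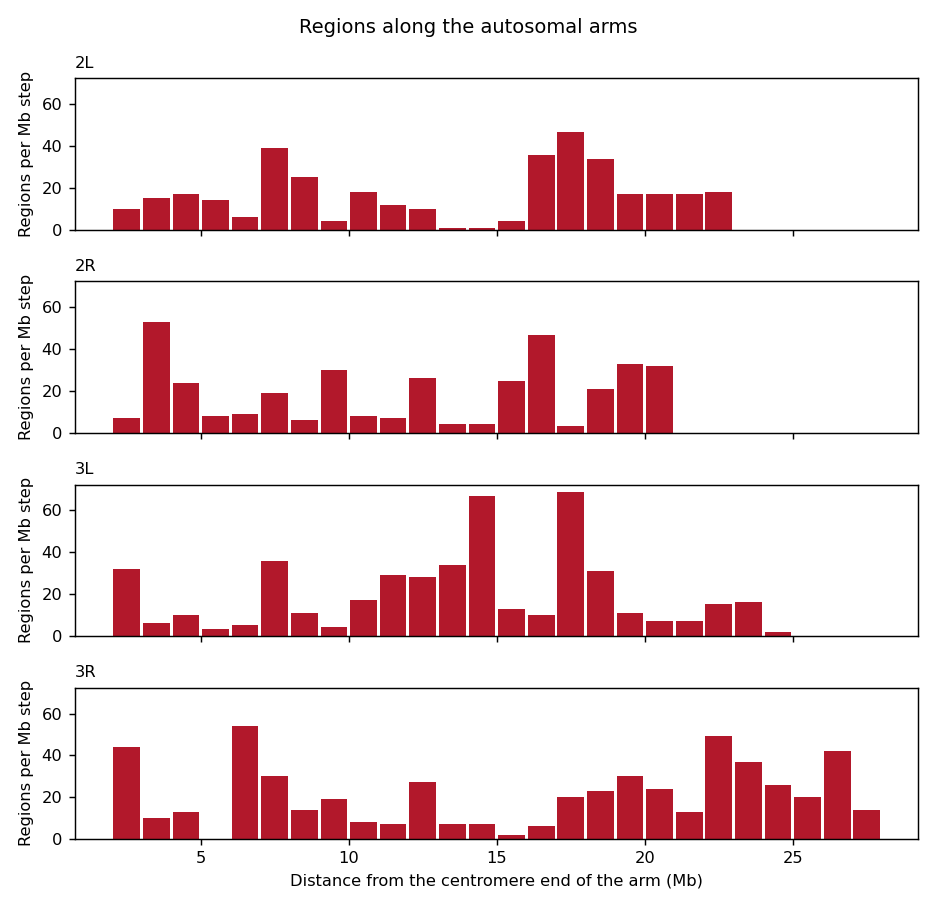
Number of regions in each 1 Mb step (y axis) against the distance in Mb from the centromere end of the arm (x axis) for 2L, 2R, 3L and 3R; the first 2 Mb were left out by the rule. Steps with 47 to 69 regions stand beside steps with 0 to 3.

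The steps with many regions also had higher values between the regions. Steps were ranked by regions called on *roX* mutant MSL2, so its own level is a description: outside all *roX* mutant MSL2 regions, its median in 1 kb bins was 0.15 in the 10 densest steps (0.0032 to 0.20) and -0.085 in the 10 sparsest (-0.21 to -0.047). The same steps had a median *roX* mutant MSL1 level of 0.0080 in the densest (-0.11 to 0.14) and -0.24 in the sparsest (-0.35 to -0.10), and a median *roX* mutant MOF level of 0.14 in the densest (-0.083 to 0.44) and -0.13 in the sparsest (-0.38 to 0.087). In the wild type, whose input is another library, median MSL2 was 0.22 in the densest steps (0.19 to 0.33) and 0.16 in the sparsest (0.14 to 0.27), and the ranges overlapped. Wild type MOF was 0.22 in the densest steps (-0.17 to 0.61) and -0.091 in the sparsest (-0.42 to 0.32), also with overlap. In log2 this was the widest gap between the medians among the 5 libraries. The wild type MOF bins also had the widest spread (SD 0.41), and that library had a higher median on 3R (0.34) than on the other arms. Over the 87 steps, the number of regions went with the wild type MSL2 level of the bins at r = 0.37 and rho = 0.41, and with that of wild type MOF at r = 0.30 and rho = 0.34. No such relation is given for the *roX* mutant libraries, which share the input that the selection used. Neighbouring steps are not independent. The part of base composition or mappability in these levels was not tested.

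**Figure D3:**
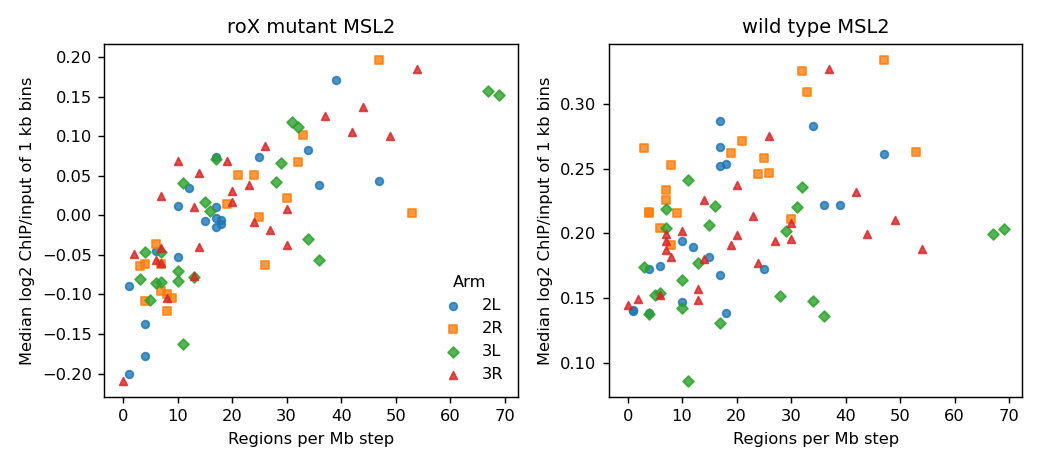
Number of regions per 1 Mb step (x axis) against the median log2 ratio of the 1 kb bins of that step outside all roX mutant MSL2 regions (y axis), for roX mutant MSL2 (left) and wild type MSL2 (right; the y axes differ). Each point is 1 of 87 steps, with a colour and marker per arm; the number of regions was called on roX mutant MSL2, so the left panel is a description of the values the rule used, and in the right panel steps with many and few regions overlap.

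Neighbouring regions were often close together. The median distance to the next region was 12940 bp, from 360 to 1232170 bp, and 746 regions (42.9%) had another within 5 kb. No share of bins near a region was taken for comparison. Runs more than 200 bp apart count as separate regions, so that 1 stretch can give several. Chained at 5 kb, 991 regions stood alone, 207 chains held 2 and 56 held 3. The longest chains held 9 regions each. The one at chr2L:5638900-5660130 spanned 21230 bp, with median levels of 0.67 for *roX* mutant MSL2, 0.53 for *roX* mutant MSL1 and 0.44 for wild type MSL2. The other, at chr3R:23628560-23644750, spanned 16190 bp, with medians of 0.66, 0.28 and 0.36 in the same 3 libraries. Chains of 7 occurred at chr3L:10987410-11003770 and chr3L:17123320-17143720. At the other end, 74 regions had no other within 100 kb.

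Wild type MSL2 was slightly elevated at these regions and had almost no called region there. The mean wild type MSL2 log2 ratio in a region, which could be had for 1554 of the 1737 regions (5 values or more), ranged from -0.33 to 1.08 with a median of 0.32 (quartiles 0.20 and 0.43, SD 0.18 over regions). Autosomal 1 kb bins had a median of 0.21 (quartiles 0.078 and 0.32, SD 0.19, n = 79685), so that the regions lay 0.11 above the bins. Of the 1554 regions, 1145 (73.7%) were above the bin median, and 385 (24.8%) were above the 90th percentile of the bins, which 10.0% of the bins exceed. Against bins of 400 bp, closer in size to the regions, 18.2% were above that percentile. Most regions therefore lay below the 90th percentile of the wild type values of the bins.

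Most of the wild type shift was also present next to the regions. The flanks at 1 to 3 kb on both sides were 0.083 above the bins, and a region exceeded its own flanks by a median of 0.037 (quartiles -0.089 and 0.16). This local difference was positive in 890 of 1546 regions (57.6%). *roX* mutant MSL2, on which the regions were selected, had a median of 0.68 in the regions and 0.23 in the flanks. A mean profile around the peak centre gave the shape in each library. *roX* mutant MSL2, which the selection required to be high there, stood 0.70 above its bin median at the centre and 0.20 at 5 kb. Wild type MSL2 stood 0.11 above its own at the centre and 0.066 at 5 kb.

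**Figure D4:**
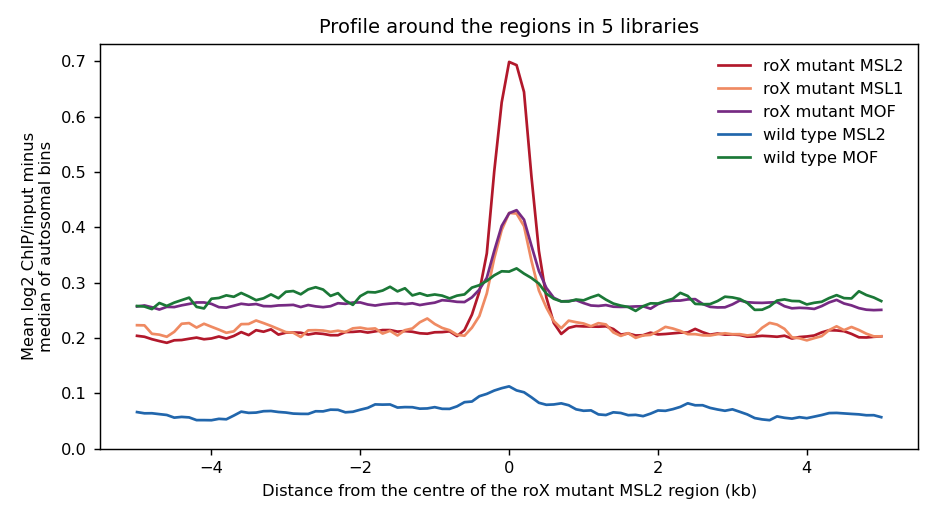
Mean log2 ratio minus the median of autosomal 1 kb bins of the same library (y axis) against the distance from the peak centre in kb (x axis), 1 line per library. The roX mutant MSL2 line, on which the regions were selected, is at 0.70 in the centre, roX mutant MSL1 and MOF are at 0.43, wild type MOF is at 0.32 and wild type MSL2 is at 0.11.

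Wild type MSL2 was about the same in low and high regions of the *roX* mutant. Across the 1554 regions, mean *roX* mutant MSL2 and mean wild type MSL2 had r = 0.026 and rho = 0.019, over the narrow span of *roX* mutant values that the rule left. In the equal groups of 579 regions with the lowest, middle and highest region values, median wild type MSL2 was 0.31, 0.32 and 0.32. Among the 78491 autosomal bins with values in both, the same libraries had r = 0.37 and rho = 0.36. By arm, the median wild type MSL2 of the regions was 0.33 for 2L, 0.36 for 2R, 0.29 for 3L and 0.30 for 3R.

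Regions called in wild type MSL2 by the same procedure (cutoff 0.88) numbered 92 on the arms outside the centromere ends. Of the 1737 regions, 7 overlapped one of them, or 0.403% (exact binomial 95% interval 0.162 to 0.829%, which covers counting error only), against 0.154% of 79685 autosomal bins. The bins all had wild type MSL2 values, and of the 1554 regions with a wild type MSL2 level 6 overlapped one (0.386%). The bins, of 1 kb, are longer than most regions and have more room to overlap one. The share over all regions depended on the calling, and was 0.0854% with the highest 1% of values, 2.97% with the highest 3% and 0% with a minimum length of 500 bp or a running median over 2 kb. The last 2 settings left 384 and 862 regions. The wild type regions were called anew in each setting, and the bin share of 0.154% holds for the main calling only. It was not taken for the other settings. In 3 of the 7, at least 50% of the region was covered. Of the 1554 regions with a wild type MSL2 level, 37 (2.38%) lay within 5 kb of a wild type MSL2 region, against 1.23% of the bins. The median distance to the nearest was 359695 bp for these regions and 462821 bp for the bins.

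These 7 regions were not alike in the other libraries. The one at chr2R:9812890-9813330 had a *roX* mutant MSL2 value of 0.89 and the highest wild type MSL2 level of all 1737, 1.08, while its *roX* mutant MSL1 level was -0.58, *roX* mutant MOF was -0.40 and wild type MOF was -0.14. Of the 5 levels, only those of MSL2 were thus above the bin medians there, in both genotypes. Wild type MOF still exceeded its own flanks by 0.58, while the local differences of *roX* mutant MSL1 and MOF were -0.42 and -0.14. At chr3R:21792520-21792910, by contrast, wild type MSL2 was 0.95 and wild type MOF 0.70, with *roX* mutant levels of 0.63 for MSL2, 0.25 for MSL1 and 0.36 for MOF. Another such region, chr2R:16517000-16517480, had levels of 0.63 for *roX* mutant MSL2, 0.11 for MSL1 and 0.60 for MOF, and wild type levels of 0.93 for MSL2 and 0.69 for MOF. All 5 levels were above the bin medians in this one and in chr3R:21792520-21792910.

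The other overlapping regions were at chr2L:591870-592570 with a wild type MSL2 level of 0.54, chr2R:7416880-7417150 with 0.68, chr3R:23637870-23638290 with 0.76 and chr3R:26814500-26814960, which had fewer than 5 wild type MSL2 values. Of these, chr3R:23637870-23638290 belongs to the chain of 9 on 3R. High wild type MSL2 without a called wild type region was found at chr2R:2797650-2798050, at 0.88, where *roX* mutant MSL1 was -0.14 and MOF -0.17, and at chr3L:13554780-13554980, at 0.88, where *roX* mutant MSL1 was 0.55 and MOF 0.31.

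MSL1, the partner of MSL2 in the core of the complex, was elevated at the regions in *roX* mutants but overlapped no called MSL1 region. Its mean log2 ratio could be had for 1152 of the 1737 regions (66.3%) and had a median of 0.36 (quartiles 0.21 and 0.53), against -0.050 in 61846 bins. The difference was 0.41, with 1103 regions (95.7%) above the bin median and 615 (53.4%) above the 90th percentile of the bins, which 10.0% of bins exceed. With 400 bp bins, 45.1% of the regions were above it. Regions exceeded their own flanks by 0.19 (quartiles 0.0039 and 0.35), in 863 of 1137 (75.9%). MSL1 and MSL2 of the *roX* mutant share their input, and the regions were picked for a high ratio over that input. How much of the MSL1 elevation the shared input gives was not tested. Positions with an MSL1 value made up a median of 36.6% of a region, against 89.3% for *roX* mutant MSL2 itself.

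Called *roX* mutant MSL1 regions (cutoff 1.87) were few on the arms, with 27 outside the centromere ends. Of the 1152 regions with an MSL1 level, 0 overlapped one, which allows a share of up to 0.320% (exact binomial 95% interval), against 0.133% of 61846 autosomal bins. The interval holds the share of the bins, which are longer than most regions. It counts regions as independent although many are close together, so no conclusion on a difference is drawn. Within 5 kb of an MSL1 region lay 0 of the 1152 regions and 0.377% of the bins, and the median distance was 2210505 bp for these regions and 2469190 bp for the bins. The highest MSL1 levels among the regions were 1.13 at chr3L:22149030-22149320, 1.12 at chr2L:15536720-15536990, 1.06 at chr2R:3902740-3903200, 0.98 at chr2R:4267800-4268300 and 0.96 at chr3L:9976210-9976660. All of these were below the MSL1 cutoff of 1.87, which is set by the whole genome.

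MOF, although no MOF region overlapped the regions, was above its bins in most of them. The *roX* mutant MOF level had a median of 0.44 (quartiles 0.30 and 0.56, n = 1689), which was 0.43 above the bins, and 54.9% of the regions were above the 90th percentile of the bins, which 10.0% of bins exceed. This is a description, since the rule used MOF to leave regions out, and the cutoff for a MOF region was 0.83. Most regions are also shorter than the 1 kb bins, and the share of 54.9% was not taken against 400 bp bins. Regions exceeded their own flanks by 0.15 (quartiles 0.030 and 0.28), and the flanks were 0.28 above the bins. Of the 1689 regions with a *roX* mutant MOF level, 225 (13.3%) had a called MOF region within 5 kb, against 5.27% of the bins, some of which overlap one as no region could. The median distance was 76080 bp for these regions and 330676 bp for the bins. The highest MOF mean of a region was 0.93, over this cutoff, which applies to smoothed values in runs of 200 bp or more and not to means. The absence of a MOF region was thus not an absence of a MOF level above the autosomal median.

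Wild type MOF, from another input, had a median of 0.47 in the regions (n = 1239), which was 0.32 above the bins, and 404 (32.6%) were above the 90th percentile, which 10.0% of bins exceed. Nearly all of this was shared with the surroundings, since the flanks were 0.26 above the bins and the regions exceeded them by 0.019, with 53.9% of regions above their flanks. The share of 32.6% was not taken against 400 bp bins, which are closer in size to the regions. The level differed by arm, with medians of 0.41 for 2L, 0.39 for 2R, 0.38 for 3L and 0.64 for 3R. Over all its deposited values, the wild type MOF library also had a higher median on 3R, 0.34, than on 2L (0.016), 2R (0.018) and 3L (0.11). No region overlapped a called wild type MOF region, of which the arms held 0 outside the centromere ends (0% of 68534 bins; cutoff 2.28).

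**Figure D5:**
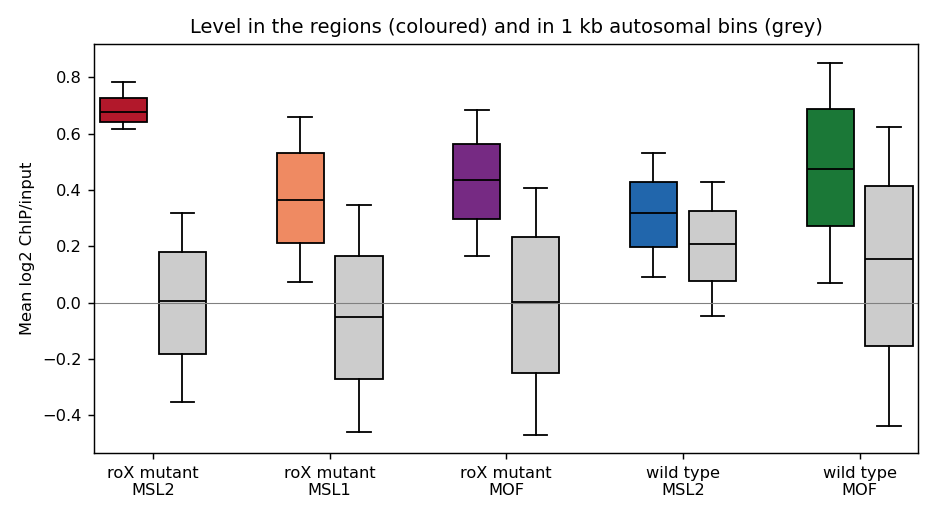
Mean log2 ratio of the regions in each of the 5 libraries (coloured) beside the autosomal 1 kb bins of the same library (grey; boxes, quartiles with the median; whiskers, 10th to 90th percentile; y axis, log2 ChIP over input). In the roX mutant the medians of the regions are 0.68 for MSL2, 0.36 for MSL1 and 0.44 for MOF, and in the wild type 0.32 for MSL2 and 0.47 for MOF, each above its bins.

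Taken region by region, the 4 libraries other than *roX* mutant MSL2 were seldom all high. Of the 859 regions with a level in each of them, 35 (4.07%) were above the 90th percentile of the bins in all 4, against 0.236% of 52918 bins with all 4 values. A further 146 regions (17.0%) were above it in 3 libraries, 301 (35.0%) in 2, 245 (28.5%) in 1 and 132 (15.4%) in none, against 1.40%, 5.56%, 18.2% and 74.7% of the bins. No library was at or below its bin median in 529 regions (61.6%) and 16.4% of the bins. The libraries of a genotype share an input, so these counts are not over independent readouts. The rule also left out MSL2 regions that overlap a *roX* mutant MOF region, and the bins were not filtered so. The counts are therefore a description.

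The highest region values of each arm illustrate this variety. The highest of all was 1.14 at chr3L:20275950-20276280, 330 bp long, with levels of 1.07 for *roX* mutant MSL2, 0.25 for *roX* mutant MOF and 0.36 for wild type MSL2, and too few MSL1 values for a level. The next on 3L, chr3L:9976210-9976660, had a value of 1.09 with levels of 1.01 for *roX* mutant MSL2, 0.96 for MSL1 and 0.57 for MOF, and 0.37 for wild type MSL2. Wild type MSL2 was just above its upper bin quartile of 0.32 in both, although MSL1 and MOF of the mutant differed. The region of 1.05 at chr3L:18353380-18353630 had no wild type MSL2 level.

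On 3R the highest value was 1.13 at chr3R:2772660-2773190, where *roX* mutant MOF was 0.76, wild type MSL2 0.36 and wild type MOF 0.93. The value of 1.12 at chr3R:24200110-24200650 came with 0.33 for *roX* mutant MSL1, 0.38 for *roX* mutant MOF, and wild type levels of 0.50 for MSL2 and 0.71 for MOF. That of 1.10 at chr3R:18048930-18049600 came with 0.60 for *roX* mutant MOF and 0.34 for wild type MOF. The 3 regions on 3R were thus above the bin medians, which pool the arms, in every library that gave a level. The wild type MOF level of 0.336 at chr3R:18048930-18049600 was below that library's median on 3R, 0.343. Against the flanks, wild type MOF differed by 0.41, -0.065 and -0.26 in the order given, and *roX* mutant MOF by 0.15, -0.072 and 0.42.

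On 2L the highest value, 1.05 at chr2L:559400-559840, showed the widest gap between the MSL2 levels of the genotypes among the 9 of these 12 regions that had both. *roX* mutant levels were 0.91 for MSL2, 0.52 for MSL1 and 0.53 for MOF, against wild type levels of -0.016 for MSL2 and -0.092 for MOF. Wild type MSL2 in this region was below its own flanks by 0.54 (local difference -0.54). In contrast, chr2L:3053330-3053640, with a value of 0.98, had wild type levels of 0.60 for MSL2 and 0.44 for MOF. The remaining one, 0.99 at chr2L:6273620-6274060, gave no level in wild type MSL2, wild type MOF or *roX* mutant MSL1.

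On 2R the highest values were 1.03 at chr2R:4883880-4884330, 1.02 at chr2R:3095940-3096320 and 1.01 at chr2R:3082640-3083090. Wild type MSL2 was 0.23, 0.30 and 0.34 in the same order, and *roX* mutant MSL1 was 0.23, 0.78 and 0.42. All of these were above their bin medians. Against the flanks of each region, however, wild type MSL2 differed by -0.20, -0.059 and -0.0004 in the same order. *roX* mutant MSL1 differed from its flanks by -0.063, 0.61 and 0.23.

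The longest regions were not the highest. They were chr2R:12470470-12471840 of 1370 bp with a value of 0.91, chr3R:6257290-6258640 of 1350 bp with 0.77, chr2R:16338000-16339330 of 1330 bp with 0.70, chr3L:10051830-10053150 of 1320 bp with 0.75 and chr3R:19307130-19308440 of 1310 bp with 0.84. Wild type MSL2 was 0.19 in the first of them, 0.38 in the second, 0.35 in the next and 0.22 in the last, and chr3L:10051830-10053150 had no level. Over the 27 regions of 1000 bp or more the median wild type MSL2 level was 0.35, against 0.31 in the 1389 regions shorter than 500 bp.

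Compared with the 137 MSL2 regions on the same arms that did overlap a MOF region, these regions had a similar wild type MSL2 level, with medians of 0.32 in the regions without MOF and 0.30 in those with it (n = 1554 and 129). *roX* mutant MSL2, which both sets passed at the same cutoff, had medians of 0.68 without and 0.69 with it. *roX* mutant MSL1 was 0.36 without and 0.48 with a MOF region (n = 1152 and 103), and *roX* mutant MOF, which made the split, was 0.44 without and 0.85 with it. Wild type MOF was 0.47 without and 0.53 with it. Against their own flanks, the regions differed by a median of 0.19 without and 0.21 with a MOF region for *roX* mutant MSL1, and by 0.15 and 0.33 for *roX* mutant MOF. For wild type MSL2 these differences were 0.037 and -0.0037, and for wild type MOF 0.019 and -0.0084. No difference between these sets was tested.

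On X, 231 *roX* mutant MSL2 regions were called with the same cutoff. Their *roX* mutant MSL2 level had a median of 0.67 and a highest value of 0.92, against 0.68 and 1.07 in the autosomal regions. Both sets were selected on these values. Wild type MSL2 was 0.32 in the autosomal regions and 0.55 in those on X (n = 219), and *roX* mutant MOF was 0.44 in the autosomal regions and 0.68 in those on X (n = 137). Wild type MOF was 0.47 in the autosomal regions and 2.35 in those on X (n = 136). Median MSL1 was 0.36 in the autosomal regions (quartiles 0.21 and 0.53) and 2.57 in the 125 of the 231 regions on X that had a level, with a lower quartile of 0.94. Part of these levels was also present in the flanks on X, with medians of 1.26 for MSL1 and 1.52 for wild type MOF. Against their own flanks, MSL1 differed by 0.73 in the X regions and 0.19 in the autosomal ones, and wild type MOF by 0.52 and 0.019. For *roX* mutant MOF these differences were 0.28 and 0.15, and for wild type MSL2 0.12 and 0.037. No difference between the autosomal and the X regions was tested. At the centromere ends, the 259 regions had medians of 0.70 for *roX* mutant MSL2, 0.65 for MSL1 (n = 229), 0.77 for MOF (n = 257) and 0.27 for wild type MSL2 (n = 170). Their flanks were high as well, at 0.53 for MSL1 and 0.67 for *roX* mutant MOF. Against these flanks the regions differed by 0.10 for MSL1 and 0.145 for *roX* mutant MOF, where the autosomal regions had 0.19 and 0.150.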

How the data were processed

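Per the methods, SOLiD reads with a unique match were aligned with Bioscope to the *D. melanogaster* genome, release 5. The authors deposited log2 ratios of ChIP to the matching input, 1 value every 10 bp where a ratio was kept, and 5 libraries were used. The rule by which positions lack a value is given by reference in the methods. Read depth is unknown, so no counting error of a ratio could be given. The 5 libraries held between 4328845 and 8174123 values each.

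Regions were defined with the parameters of the methods. The paper took MSL1, and not MSL2, to represent the *roX* mutant, since its ratios were the most distinct. Its *roX* mutant regions are thus MSL1 regions, and the MSL2 regions here are not the paper's calls. The running median was taken at positions with a value and all sequences of a file set the cutoff, with 5 or more units per region. Levels are means of deposited values over a region with 5 or more values, and were compared with means of 1 kb bins (25 or more values) on the arms outside the centromere ends. Overlap means 1 shared position or more. No test was run, as there is 1 library per antibody and genotype. Named regions are the 3 of highest value per arm, the 5 longest, the 5 highest in wild type MSL2, the 5 highest in *roX* mutant MSL1, the 3 of lowest value and the 3 highest just outside; the regions that overlap a wild type region and the chains were added after their values were seen. The regions and these rules were chosen with earlier results of these data known. Alternatives varied the cutoff, window, joining, length, centromere end, MOF rule, comparison bins and overlap. The code was tested on simulated data. Python 3.11.15, numpy 2.4.6, pandas 2.3.3, scipy 1.17.1 and matplotlib 3.10.9 were used. The 3 *D. simulans* files were not used here. Genes and sequences at the regions were not analysed here.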

Additional observations from a re-analysis of the deposited data

How the results depend on the processing

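The number of regions was 1737 and ranged from 384 to 3167 over 12 alternatives, of which 8 stayed within 1.5 times. It was 3167 with the highest 3% of values, 862 with a 2 kb running median, 1098 with 40 or more values per window and 384 with a minimum length of 500 bp. Wild type MSL2 exceeded the bins, or the flanks where these were compared, in all 16 alternatives. The difference of 0.11 moved beyond its interval over regions with a 2 kb median (0.13) and against the flanks (0.037). So did *roX* mutant MSL1 in all 16. Its difference of 0.41 moved with the highest 3% (0.38), the 2 kb median (0.37), 40 or more values (0.38), against the flanks (0.19) and, in an alternative chosen after seeing the data, in regions with values at 50% of positions or more (0.44). The share of regions overlapping a wild type MSL2 region, 0.403%, moved in 5 of 13 alternatives, to 0.0854% with the highest 1%, 2.97% with the highest 3%, 0.0911% with 40 or more values, and 0% with a 2 kb median or a minimum length of 500 bp. Within its interval, it was 0.775% with every 10 bp position smoothed and 0.173% with 50% of the region covered. No share of bins was taken under these alternatives. The share overlapping a *roX* mutant MSL1 region was at most 0.0316% in 13 alternatives. It was counted over all regions, with or without an MSL1 level. With no share of bins beside it, no conclusion on a difference is drawn here either. Bins of 400 bp were also chosen after seeing the data. Why these values moved was not tested. No paired analysis was possible because each antibody and genotype has 1 library. With unknown depth, a region with few values is less certain, and single regions near 0.60 rest on the cutoff.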
